A study of Mus musculus with 6 samples.

Results

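Proteasome subunits and assembly factors were taken as the protein-coding genes of the deposited table whose symbol starts with Psma to Psmg and a number, leaving out the 3 interferon-inducible catalytic subunits Psmb8, Psmb9 and Psmb10. This gave 47 of 55471 gene IDs. The libraries were total RNA from mouse haematopoietic stem cells, sorted as CD150+ CD48- Sca1+ Kit+ cells without lineage markers. All mice carried the genotype given as ETV6-RUNX1, the fusion of a childhood B-cell precursor leukaemia, in a form that doxycycline induces. The 3 uninduced libraries came from mice without doxycycline, and the 3 induced libraries from mice given doxycycline in the food over 2 weeks. Age, sex, strain, the promoter of the transgene and whether animals were pooled are not given in the sources used here. No doxycycline-fed group without the fusion was analysed here, so fusion and drug cannot be told apart. Nothing in the labels says that libraries of a group came from separate animals, so p-values measure the spread between these libraries only.

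The proteasome degrades proteins tagged with ubiquitin. Its barrel-shaped core, the 20S particle, has outer rings of alpha subunits (Psma genes), which gate the entry, and inner rings of beta subunits (Psmb genes), of which Psmb5, Psmb6 and Psmb7 cut peptides. The 19S cap holds a base of ATPases (Psmc genes) that unfold substrates, and a lid (most Psmd genes) that removes the ubiquitin chain. Assembly chaperones (Psmg1 to Psmg4, Psmd5, Psmd9 and Psmd10) build these parts, and activators (Psme genes) can replace the cap. Transcription of the subunit genes is known to be raised by the factor Nfe2l1, which binds antioxidant response elements, when proteasome activity falls short. Haematopoietic stem cells are known for a low rate of protein synthesis and for sensitivity to misfolded protein.

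Promoter sequence is shown for the catalytic subunits Psmb5 and Psmb6, whose windows hold the core of that element, and for Psmd14, the lid deubiquitinase, because these 3 subunits had the largest decrease (Psmd14, Psmb5) or kept the call under every alternative tried (Psmd14, Psmb6). RefSeq windows on GRCm38.p6, from 250 bases before to 50 bases after a start site, were available for 39 of the 47 genes. Each stretch below ends at the RefSeq start site, except that of Psmb5, which leaves out the last 27 bases because GENCODE M21 places them in an exon. They read 5′ to 3′ on the gene's strand, and capitals mark a match to TGACNNNGC (the element's core) or to CCAAT (the NF-Y box), on either strand.
Psmb5, chr14:54618023-54618195, minus strand: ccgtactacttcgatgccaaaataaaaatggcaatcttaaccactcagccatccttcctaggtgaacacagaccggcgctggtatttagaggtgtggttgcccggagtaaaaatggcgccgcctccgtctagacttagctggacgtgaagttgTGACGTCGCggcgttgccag
Psmb6, chr11:70525157-70525356, plus strand: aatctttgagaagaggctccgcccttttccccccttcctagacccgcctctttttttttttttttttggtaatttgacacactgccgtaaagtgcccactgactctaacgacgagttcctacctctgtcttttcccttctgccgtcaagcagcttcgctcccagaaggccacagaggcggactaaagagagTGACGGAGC
Psmd14, chr2:61711494-61711693, plus strand: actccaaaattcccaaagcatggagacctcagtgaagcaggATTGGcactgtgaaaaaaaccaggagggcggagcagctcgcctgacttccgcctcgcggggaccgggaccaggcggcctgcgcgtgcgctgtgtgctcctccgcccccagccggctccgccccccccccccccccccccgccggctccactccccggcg
The match starts 47 bases before the RefSeq start site in Psmb5 and 9 bases before it in Psmb6, and the CCAAT match of Psmd14, on the opposite strand (ATTGG), starts 159 bases before it. The window of Psmd14 holds 3 CCAAT matches, and the other two lie after the start site. Over whole windows, TGACNNNGC occurred in 6 of 39 proteasome genes (15.4%), in 14.0% of all 27025 genes with a window and in 16.8% of 8483 tested nuclear protein-coding genes. CCAAT occurred in 14 proteasome genes (35.9%), against 41.1% and 43.5%, and the E-box CACGTG in 3 (7.69%), against 8.09% and 12.1%. Each share was below that of the tested protein-coding genes. TGACNNNGC occurred in 2 of 12 called genes and in 4 of 24 tested genes without a call, 16.7% in both. A match is a description of letters and not evidence of binding.

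The unit TPM corrects for gene length and sums to the same total in each library. Nuclear protein-coding genes held 26.6% to 32.9% of the TPM in uninduced and 20.5% to 23.2% in induced libraries, and the median log2 change of all 13470 genes tested was -0.35. The main changes are therefore also given after median-of-ratios scaling, which divides each library by its median ratio to the average library and brings that median to 0.0032. Of the stem cell markers checked, all 10 were detected, at a summed 582 to 784 TPM in uninduced and 524 to 555 TPM in induced libraries. T-cell, B-cell and stromal or endothelial markers (4 each) summed to at most 0.881 TPM in any library, with Cd3e, Cd79a and Col1a1 at 0 in all 6. Cycling markers (4 genes) summed to 119 to 151 TPM in uninduced and 15.2 to 24.6 TPM in induced libraries, and 3 of them were called lower by the test used below. Erythroid markers (6 genes) summed to 27.4 to 38.5 and 249.8 to 305 TPM, and 3 of the 5 tested were called higher. The induced sum was mostly the globins Hba-a1 and Hbb-bs, with means of 98.5 and 177 TPM, while Epor had means of 3.37 TPM in uninduced and 0.485 TPM in induced libraries, without overlap or a call. Myeloid markers (6 genes) summed to 144 to 178 and 150 to 189 TPM, megakaryocyte markers (4 genes, of which Pf4 and Ppbp were called higher and Gp9 lower, the last a call lost after median-of-ratios scaling) to 80.7 to 112 and 105 to 113 TPM, and multipotent progenitor markers (3 genes) to 49.1 to 62.9 and 67.1 to 86.8 TPM. The myeloid sum was mostly Lyz2, with means of 97.9 TPM in uninduced and 131 TPM in induced libraries, called higher only after median-of-ratios scaling. The other tested myeloid markers, Mpo, Elane and S100a8, had lower means in induced libraries and no call on either scale. Cd34 of the progenitor list was also called higher only after that scaling. The part that cell cycle or erythroid transcripts have in the results below was not tested. In bulk samples, fewer cells of a type and less RNA per cell cannot be told apart.

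On the deposited scale 13 of 44 tested proteasome genes were called lower in the induced stem cells and 0 higher. The median log2 change was lowest in the lid (-0.81) and nearest to 0 in the assembly chaperones (-0.39), with the base ATPases at -0.65, the alpha ring at -0.63, the beta ring at -0.57, the activators with their inhibitor at -0.55 and the base non-ATPases at -0.49. Differences between these groups were not tested. Of 47 genes, 44 reached a mean of 1 TPM and were tested, each with a mean of 6.51 TPM or more. Psmb11, Psmd10 and the retrocopy Psme2b were below it in both groups. Of the 44, 43 had a negative log2 change, as had 9766 of all 13470 tested genes, and 13 were called lower and 0 higher (limma, adjusted p under 0.05 over all genes), at 29.5%, where 10.2% of all tested genes (11.4% of nuclear protein-coding ones) were called lower and 1.29% higher. At an unadjusted p under 0.05 (limma), 27 of the 44 were lower and 0 higher. Of all 13470 tested genes, 3762 (27.9%) passed in either direction, and the part of these that was lower was not counted. Groups did not overlap in 26 of the 44, all lower, which is 59.1% against a background of 28.2% lower and 4.83% higher. The median log2 change of the 44 genes was -0.63, below the -0.35 of all tested genes, and 38 of them lay below that value. All 13 called genes had groups that did not overlap, which a call with 3 libraries a group favours, so this is no separate support. Leaving out 1 library left 3 called without induced replicate 1 and 4 without induced replicate 2 or uninduced replicate 2. It left 7 without induced replicate 3 or uninduced replicate 1 and 8 without uninduced replicate 3. The number of all genes called also fell in each of these fits (range given in the last part). These 6 fits are therefore not read against the shares above.

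After median-of-ratios scaling the decrease was smaller and most calls were lost. The median of the 44 genes was then -0.24, and 37 were negative, as were 6702 of all 13470 tested genes. Called lower were 3, or 6.82%, against a background of 3.1% (3.46% of nuclear protein-coding genes), and 0 were called higher, against 2.88%. Groups did not overlap in 15, again all lower, or 34.1% against 14.3% lower and 13.6% higher. The 3 genes were Psmb6, Psmd14 and Psmc3ip, and all 3 were among the 13. Rescaling each library to its nuclear protein-coding genes, with only the 10562 such genes tested, gave 5 lower, or 11.4% against 4.27%, and 0 higher against 4.12%. These shares describe genes chosen with earlier results known, and the list itself was not tested.

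Ribosomal protein genes give the size of the change in other housekeeping complexes. The median log2 change was -0.63 for 77 mitochondrial ribosomal protein genes, of which 9 were called lower (11.7%, against 10.2% of all tested genes), and -0.61 for 79 cytosolic ribosomal protein genes, of which 46 were (58.2%). After median-of-ratios scaling these medians were -0.25 and -0.22, with 1 (1.3%) and 7 (8.86%) called lower, against 3.1% of all tested genes and 6.82% of the proteasome genes. The proteasome medians were -0.63 and -0.24, and no difference between these sets was tested.

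**Figure D1:**
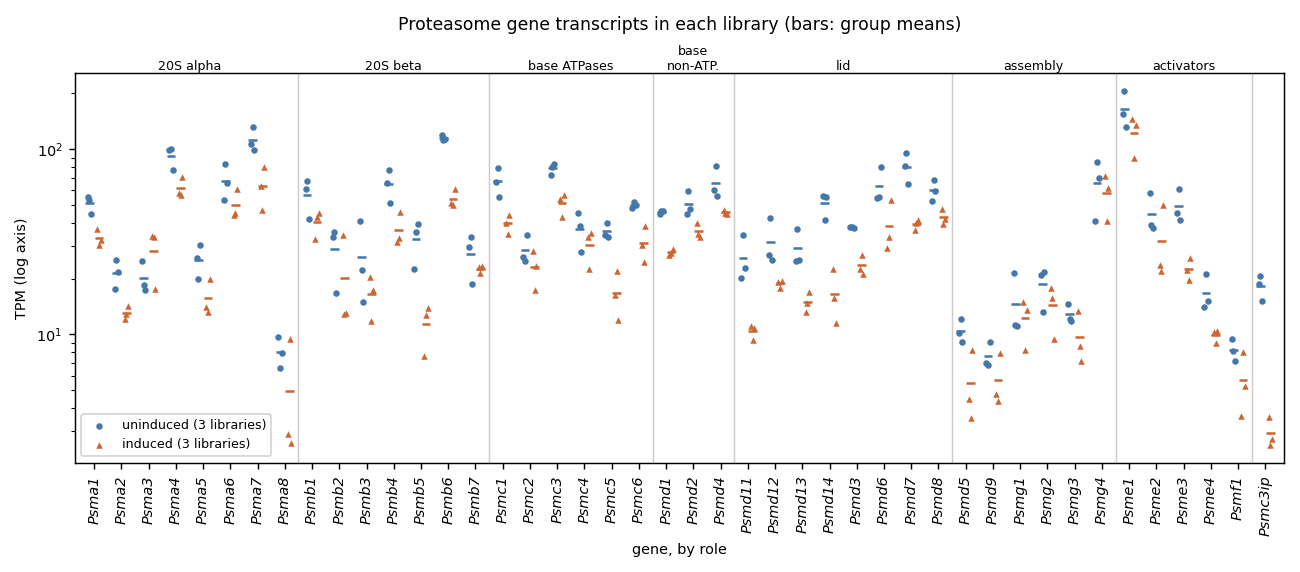
TPM on a log axis of the 44 tested proteasome genes in each library, grouped by role, with circles for 3 uninduced and triangles for 3 induced libraries and bars at group means. Most triangles lie below the circles of the same gene, Psme1 is highest in both groups, and Psma3 is the gene with a positive log2 change.

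Summed over all 47 genes, proteasome transcripts took 1975, 2232 and 1843 TPM without induction against 1320, 1134 and 1387 TPM with it. All induced sums lay below all uninduced sums, at 63.5% of the uninduced mean. As a share of nuclear protein-coding TPM, which does not move with noncoding RNA, they held 0.662%, 0.679% and 0.692% in uninduced and 0.600%, 0.552% and 0.597% in induced libraries. The induced mean share was 86.04% of the uninduced one, and the groups again did not overlap.

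Among the groups of the particle, the lid had the smallest share left. Its 8 genes held 0.128% ± 0.0104 (SD, n = 3) of nuclear protein-coding TPM in uninduced and 0.0937% ± 0.00226 (SD, n = 3) in induced libraries, or 73.5%. The beta ring stood at 78.1% of its uninduced share, the base ATPases at 87.4% and the alpha ring at 92.0%, and in these 4 the induced and uninduced libraries did not overlap. The base non-ATPases stood at 92.1%, the activators with their inhibitor at 92.6% and the assembly chaperones at 110%, with overlapping libraries. Sums weigh abundant genes most and were not tested.

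**Figure D2:**
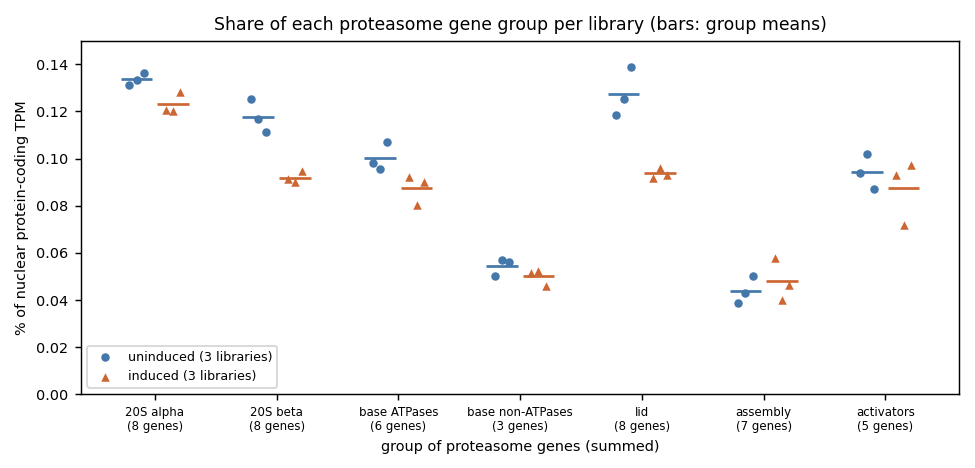
Summed TPM of each group of proteasome genes as a percentage of nuclear protein-coding TPM, for 3 uninduced libraries (circles) and 3 induced libraries (triangles), with bars at group means. The lid and the beta ring show the widest gap between groups, and the assembly chaperones overlap.

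In the alpha ring, all 8 genes were tested and 1 was called lower (12.5%, near the 10.2% of all tested genes), and 0 after median-of-ratios scaling, against 3.1%. Psma7 (ENSMUSG00000027566), a gate-ring subunit and the most abundant alpha transcript, was at 106, 132 and 98.2 TPM in uninduced and 62.9, 46.9 and 80.1 TPM in induced libraries. No induced library reached an uninduced one, and Psma7 fell by 0.84 on the log2 scale (limma SE 0.22, adjusted p 0.0382, and 0.0286 to 0.180 over 15 alternatives), or by 0.43 after median-of-ratios scaling, where the call was lost. Psma6 was nearest to 0, at 53.4, 83.2 and 65.6 TPM in uninduced and 44.1, 45.1 and 60.8 TPM in induced libraries. Its groups overlapped, and the log2 change of -0.42 (limma adjusted p 0.249) became -0.02 after median-of-ratios scaling and 0.01 after rescaling to nuclear protein-coding genes. The other alpha genes, Psma1, Psma2, Psma4, Psma5 and Psma8, had log2 changes of -0.57 to -0.77 and did not pass.

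Psma3 was the exception. It stood at 24.8, 18.5 and 17.3 TPM in uninduced and 34.2, 33.4 and 17.5 TPM in induced libraries, a log2 change of 0.43 (limma SE 0.29, adjusted p 0.376, and 0.116 to 0.672 over the alternatives). The groups overlapped through induced replicate 3. The values of this gene are uncertain, because the pseudogene Gm13835 matches it over all 685 of its bases at 100% identity and had a mean of 59.3 TPM. Reads from a gene and an identical copy cannot be told apart. Psma3 had 3 pseudogene copies by the search described next, which together took 70.3, 78.9 and 65.7 TPM in uninduced and 49.1, 47.9 and 48.6 TPM in induced libraries. Gene and copies summed to 91.8 ± 7.76 TPM without and 76.9 ± 9.32 TPM with induction (SD, n = 3 per group). These sums overlapped, and their mean was lower in induced libraries, where the mean of the gene's own row was higher.

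**Figure D3:**
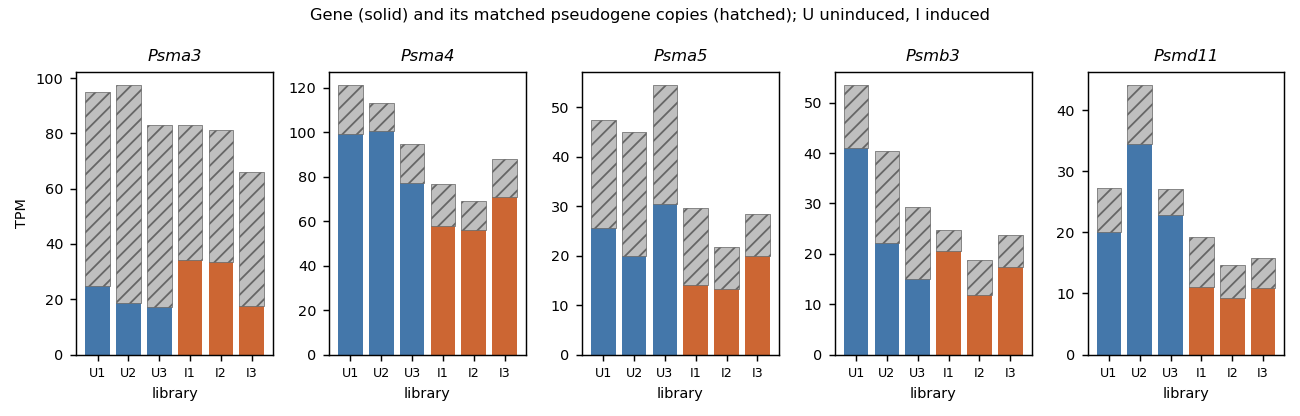
TPM in each library (U1 to U3 uninduced, I1 to I3 induced) of 5 proteasome genes (solid) with their matched pseudogene copies stacked on top (hatched), each panel on its own linear axis from 0. Copies take most of the Psma3 total, and the summed height is lower in the induced libraries for Psma4, Psma5, Psmb3 and Psmd11.

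The search for copies was made after the values were seen. Pseudogene transcripts with at least 90% identity over at least 50% of their length were found for 15 of the 47 genes, 28 pseudogenes in all. For 5 genes the copies had over 10% of the gene's own mean TPM, which makes the split between gene and copy uncertain. These were Psma3, Psma4, Psma5, Psmb3 and Psmd11. Psma5 with its copies summed to 48.9 ± 4.89 TPM without and 26.6 ± 4.26 TPM with induction (SD, n = 3 per group), and Psmb3 with its 6 copies to 41.0 ± 12.1 TPM without and 22.4 ± 3.11 TPM with induction (SD, n = 3 per group). In both, the groups overlapped for the gene alone and did not for the sum. Of these 5 genes Psmd11 alone was called.

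In the beta ring, 7 of 8 genes were tested and 3 were called lower (42.9%, against 10.2% of all tested genes), and 1 after median-of-ratios scaling (14.3%, against 3.1%). Psmb6 (ENSMUSG00000018286, chr11:70525367-70527858 on GRCm38), the caspase-like catalytic subunit, was at 119, 112 and 113 TPM in uninduced and 51.3, 49.7 and 61.1 TPM in induced libraries. Its groups were far apart, with a log2 change of -1.08 (limma SE 0.16, adjusted p 0.00450, and 0.00346 to 0.0384 over the 15 alternatives). After median-of-ratios scaling the change was -0.68, still past the threshold. Psmb5 (ENSMUSG00000022193, chr14:54614119-54618022), the chymotrypsin-like subunit and the target of the drug bortezomib, was at 22.5, 35.8 and 39.6 TPM in uninduced and 7.62, 12.7 and 13.9 TPM in induced libraries. All induced values lay below the lowest uninduced one, with a log2 change of -1.44 (limma SE 0.30, adjusted p 0.0163, and 0.0115 to 0.0853 over the alternatives). Median-of-ratios scaling took it to -1.05, without a call.

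Psmb7 (ENSMUSG00000026750), the trypsin-like catalytic subunit, was not called. It was at 29.6, 33.4 and 18.7 TPM in uninduced and 23.0, 21.3 and 23.5 TPM in induced libraries. The groups overlapped and the log2 change was -0.22 (limma SE 0.25, adjusted p 0.609), which became 0.17 after median-of-ratios scaling. Among the structural beta subunits, Psmb4 was called lower (mean 64.7 ± 12.8 to mean 36.8 ± 7.70 TPM, SD, n = 3 per group, limma adjusted p 0.0468, log2 change -0.80), a call lost after scaling. Psmb1, Psmb2 and Psmb3 had log2 changes of -0.47 to -0.57 with overlapping groups.

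Each standard catalytic subunit can be replaced by an interferon-inducible one, giving the immunoproteasome, so the inducible genes were set against them within each library. Such a ratio does not depend on how libraries are scaled. Psmb8 takes the place of Psmb5, and the Psmb8 to Psmb5 ratio was 4.72, 2.58 and 1.82 in uninduced and 11.8, 7.10 and 7.11 in induced libraries. For Psmb9 to Psmb6 it was 0.154, 0.233 and 0.249 in uninduced and 0.416, 0.398 and 0.561 in induced libraries. Both ratios were higher in every induced library than in any uninduced one, by 1.59 and 1.13 log2 units. The exact permutation p (two-sided) was 0.1 for each, the smallest that 3 against 3 can give, and 0.15 adjusted over 3 ratios, so neither could pass 0.05. Psmb10 to Psmb7 ranged from 1.10 to 1.80 in uninduced and from 1.02 to 1.25 in induced libraries, overlapping (exact permutation p 0.5).

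**Figure D4:**
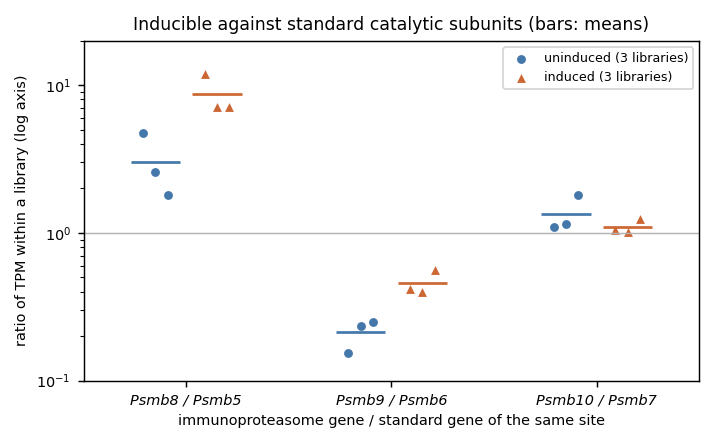
Ratio of TPM within a library, on a log axis, of each immunoproteasome gene to the standard gene whose place its product takes, for 3 uninduced (circles) and 3 induced libraries (triangles), with bars at group means. Induced libraries lie above uninduced ones for Psmb8 / Psmb5 and Psmb9 / Psmb6 and overlap for Psmb10 / Psmb7.

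No inducible gene was called. Psmb8 averaged 90.1 ± 17.3 TPM without and 93.1 ± 5.08 TPM with induction (SD, n = 3 per group), with a log2 change of 0.06 (limma adjusted p 0.856) on the deposited scale and 0.47 after median-of-ratios scaling. Psmb9 averaged 24.2 ± 5.09 TPM without and 25.1 ± 7.94 TPM with induction (SD, n = 3 per group), with a log2 change of 0.03 (limma adjusted p 0.955), or 0.42 after scaling. Psmb10 had a log2 change of -0.47 (limma adjusted p 0.173). On the deposited scale the higher ratios came with lower Psmb5 and Psmb6 values.

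Of the 6 base ATPases, which form the ring that unfolds substrates, 2 were called lower (33.3%, against 10.2% of all tested genes), and 0 after median-of-ratios scaling, against 3.1%. Psmc5 (ENSMUSG00000020708) was at 34.5, 39.9 and 33.6 TPM in uninduced and 16.3, 22.1 and 11.9 TPM in induced libraries. The groups did not overlap, with a log2 change of -1.10 (limma SE 0.25, adjusted p 0.0235, and 0.0169 to 0.167 over the alternatives), or -0.70 without a call after median-of-ratios scaling. Psmc1 fell from a mean of 66.9 ± 11.9 to 39.7 ± 4.55 TPM (SD, n = 3 per group), with limma giving -0.73 on the log2 scale at an adjusted p of 0.0430, also lost after scaling. Psmc4 was at 44.9, 38.4 and 27.8 TPM in uninduced and 33.7, 22.5 and 35.3 TPM in induced libraries. The groups overlapped, with a log2 change of -0.27 (limma adjusted p 0.523), which became 0.12 after scaling. Psmc2 likewise changed sign (-0.30 and 0.09), and Psmc3 and Psmc6, at -0.62 and -0.69, did not pass (limma adjusted p 0.0523 and 0.0617).

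The base also holds the scaffold proteins Psmd1 and Psmd2 and the ubiquitin receptor Psmd4. Psmd1 (ENSMUSG00000026229) was at 44.7, 46.3 and 46.2 TPM in uninduced and 26.7, 27.6 and 28.8 TPM in induced libraries. These values were among the most even within groups, and Psmd1 fell by 0.70 on the log2 scale (limma SE 0.18, adjusted p 0.0340, and 0.0250 to 0.343 over the alternatives), or by 0.31 after scaling, where the call was lost. Psmd2 was at 44.8, 59.7 and 47.2 TPM in uninduced and 39.9, 34.9 and 33.5 TPM in induced libraries, again without overlap (log2 change -0.47, limma adjusted p 0.149). Psmd4 had a log2 change of -0.49 and did not pass, although its groups did not overlap.

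All 8 lid genes had a negative change on both scales, none of their groups overlapped on the deposited scale, against 28.2% of all tested genes lower without overlap, and 4 were called lower, against 10.2%. After median-of-ratios scaling the groups of Psmd3, Psmd6 and Psmd8 overlapped and 1 of the 8 was called, against 3.1% of all tested genes. Psmd14 (ENSMUSG00000026914, chr2:61711694-61800376), the metalloprotease that cuts ubiquitin chains off substrates, was at 56.1, 41.5 and 55.1 TPM in uninduced and 22.6, 15.7 and 11.5 TPM in induced libraries. The highest induced library lay well below the lowest uninduced one, with a log2 change of -1.60 (limma SE 0.27, adjusted p 0.00622, and 0.00449 to 0.0437 over the alternatives). After median-of-ratios scaling it was -1.20, still past the threshold. Among the tested subunits of the particle this was the largest decrease on both scales.

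Psmd11, a lid scaffold subunit known to set proteasome levels in pluripotent stem cells, was at 20.1, 34.5 and 22.8 TPM in uninduced and 11.04, 9.29 and 10.9 TPM in induced libraries. Its log2 change was -1.20 (limma SE 0.26, adjusted p 0.0195, and 0.0135 to 0.0801 over the alternatives), and gene plus copy summed to 32.8 ± 9.76 TPM without and 16.6 ± 2.37 TPM with induction (SD, n = 3 per group). Psmd7, the partner of Psmd14, fell from a mean of 80.2 ± 15.2 to 39.4 ± 2.61 TPM (SD, n = 3 per group), with limma giving -0.99 on the log2 scale at an adjusted p of 0.0123. Psmd13 fell from a mean of 29.1 ± 7.002 to 14.96 ± 1.90 TPM (SD, n = 3 per group), with limma giving -0.90 on the log2 scale at an adjusted p of 0.0416. None of these 3 passed once libraries were scaled by median of ratios, at -0.82, -0.59 and -0.51. Psmd8 was nearest to 0 in the lid, at 52.5, 68.1 and 59.6 TPM in uninduced and 47.6, 39.6 and 41.8 TPM in induced libraries (log2 change -0.47, limma adjusted p 0.131). Psmd3, Psmd6 and Psmd12 had log2 changes of -0.67 to -0.71 and did not pass.

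**Figure D5:**
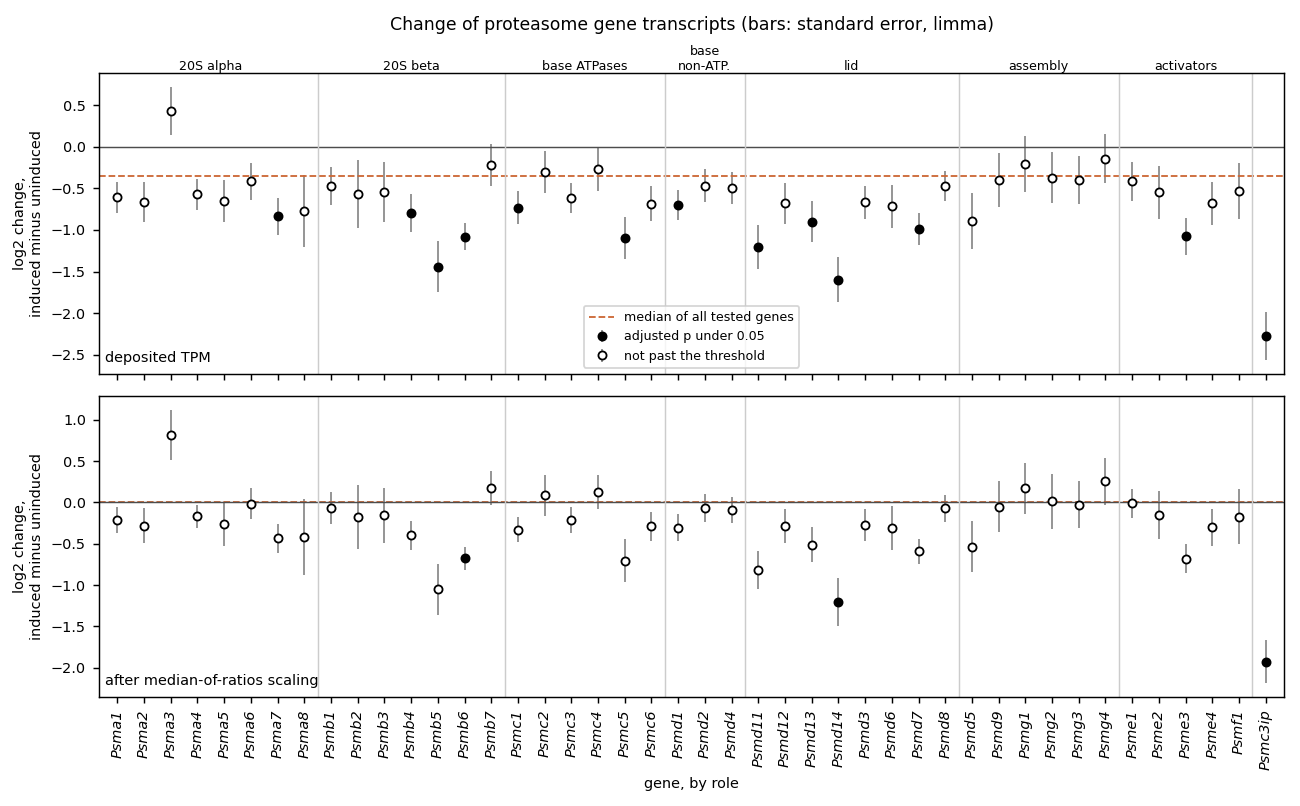
Log2 change (induced minus uninduced) of the 44 tested proteasome genes with standard errors from limma, on deposited TPM (upper panel) and after median-of-ratios scaling (lower panel), where filled points have an adjusted p under 0.05 and the dashed line is the median of all tested genes. In the upper panel 13 points are filled, and in the lower panel Psmb6, Psmd14 and Psmc3ip are.

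No assembly chaperone was called by limma, of 6 tested, which is near what the 10.2% of all tested genes called lower would give for so few genes, and 1 (Psmd5) had an unadjusted p under 0.05. Psmd5, a chaperone of the base, was nearest to the threshold, at 10.2, 12.1 and 9.12 TPM in uninduced and 4.505, 3.56 and 8.27 TPM in induced libraries. The groups did not overlap (log2 change -0.89, limma SE 0.34, adjusted p 0.120). Psmg4, a chaperone of the alpha ring, was at 40.7, 85.2 and 69.9 TPM in uninduced and 71.4, 40.9 and 61.5 TPM in induced libraries. Its groups overlapped almost fully, at -0.14 (limma adjusted p 0.793), or 0.26 after scaling. Psmg1, its fellow chaperone, was at 21.5, 11.2 and 11.1 TPM in uninduced and 14.99, 8.28 and 13.5 TPM in induced libraries. These values also overlapped, with a log2 change of -0.21 (limma adjusted p 0.726), or 0.17 after scaling. Psmg2, Psmg3 and Psmd9 had log2 changes of -0.37 to -0.40, of which Psmg2 became 0.01 after scaling. Psmd10, known as the oncoprotein gankyrin, was at 0 to 0.642 TPM and was not tested.

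Among the activators, which open the core particle without the cap, and the inhibitor Psmf1, 1 of 5 genes was called lower (against 10.2% of all tested genes), and 0 after median-of-ratios scaling, against 3.1%. So few genes do not set this count apart from that share. Psme3, a nuclear activator known for degrading the cell cycle inhibitor Cdkn1a, was at 45.1, 61.1 and 41.3 TPM in uninduced and 22.4, 19.6 and 25.9 TPM in induced libraries. No values overlapped, with a log2 change of -1.07 (limma SE 0.22, adjusted p 0.0153, and 0.0109 to 0.0683 over the alternatives), or -0.68 after scaling, where the call was lost. Psme1 and Psme2 encode the interferon-inducible activator of the immunoproteasome. Psme1 was the most abundant proteasome transcript, at 154, 206 and 131 TPM in uninduced and 145, 89.1 and 134 TPM in induced libraries, overlapping (log2 change -0.42, limma adjusted p 0.269, and 0.02 after rescaling to nuclear protein-coding genes). Psme2 averaged 44.7 ± 11.5 TPM without and 31.9 ± 15.7 TPM with induction (SD, n = 3 per group), and limma gave -0.55 on the log2 scale at an adjusted p of 0.2999. Psme4 and Psmf1 had log2 changes of -0.68 and -0.53 and did not pass.

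Psmc3ip has a name that fits the rule, but its product is no proteasome subunit. It is known as a cofactor of homologous recombination in meiosis. It was at 18.7, 20.6 and 15.2 TPM in uninduced and 3.599, 2.53 and 2.71 TPM in induced libraries. Every induced library was far below every uninduced one, and this was the largest decrease of the 44 genes, at -2.28 (limma SE 0.29, adjusted p 0.00230, and 0.00194 to 0.0213 over the alternatives), and -1.93 after median-of-ratios scaling. Leaving it and Psme2b out, 12 of 43 genes were called lower on the deposited scale, or 27.9%, against 10.2% of all tested genes. After median-of-ratios scaling only Psmb6 and Psmd14 of the 43 were, where 3.1% of all tested genes were called lower. The median of the 43 was -0.62 on the deposited scale and -0.21 after scaling.

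Subunits that enter the particle in equal numbers did not have equal transcript levels. Among the 14 standard core subunits, the highest TPM was 6.81 to 7.51 times the lowest in uninduced and 4.78 to 8.25 times in induced libraries. The lowest was Psma3 or Psmb3 in some libraries, whose levels are uncertain because of their copies. In the 17 genes of the cap the ratio was 3.64 to 4.04 and 4.86 to 5.20. The order of levels was largely kept, with a Spearman rho of 0.93 between group means across 43 genes, which are not independent replicates. Psmd14 moved from rank 16 to rank 29 of 47, Psmb5 from 25 to 36 and Psmd7 from 5 to 12. Psmg4 moved from 10 to 4, and Psma3, whose level is uncertain, from 35 to 20.

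The wider ubiquitin pathway was read from a list of 40 genes, of which 39 were found in the table and tested. On the deposited scale 8 were called lower, or 20.5%, and 0 higher, against 10.2% and 1.29% of all tested genes. After median-of-ratios scaling 1 was called lower, or 2.56%, and 0 higher, against 3.1% and 2.88% of all tested genes. By sublist, the called genes were 2 of 11 subunits and partners outside the rule, 3 of 9 shuttle and unfoldase genes, 2 of 6 ubiquitin and activating enzyme genes and 1 of 13 genes of transcriptional control.

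Uchl5, a deubiquitinase bound to the cap, was at 45.0, 47.7 and 38.7 TPM in uninduced and 17.0, 16.7 and 21.1 TPM in induced libraries. The groups were far apart, with a log2 change of -1.22 (limma SE 0.21, adjusted p 0.00671, and 0.00488 to 0.0356 over the alternatives), or -0.83 after median-of-ratios scaling, still past the threshold. Its receptor in the cap, Adrm1, fell from a mean of 41.2 ± 12.6 to 18.7 ± 6.32 TPM (SD, n = 3 per group), with limma giving -1.10 on the log2 scale at an adjusted p of 0.0443. Usp14, the other deubiquitinase of the cap, averaged 12.9 ± 4.90 TPM without and 8.42 ± 2.95 TPM with induction (SD, n = 3 per group) with overlapping groups (log2 change -0.56, limma adjusted p 0.350). Of the 3 deubiquitinases at the cap, Psmd14 and Uchl5 were called on both scales and Usp14 on neither. Pomp, the maturation factor of the core particle, averaged 29.9 ± 2.19 TPM without and 18.2 ± 4.21 TPM with induction (SD, n = 3 per group) without overlap and did not pass (log2 change -0.71, limma adjusted p 0.0803).

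Among the proteins that carry substrates to the proteasome, the shuttle factor Rad23b fell by 1.00 on the log2 scale (limma adjusted p 0.0141) and the ubiquilin Ubqln4 by 0.92 (limma adjusted p 0.0239). Vcp, the unfoldase that extracts ubiquitinated proteins from membranes and complexes, fell by 0.78 (limma adjusted p 0.0257). Uba1, the main ubiquitin-activating enzyme, fell by 0.73 (limma adjusted p 0.0195), and Rps27a, which encodes ubiquitin fused to a ribosomal protein, fell by 0.94 (limma adjusted p 0.0155). The stress-inducible polyubiquitin gene Ubb had a log2 change of -0.01, which became 0.40 after median-of-ratios scaling. The calls of Rad23b, Ubqln4, Vcp, Uba1, Rps27a and Adrm1 were lost after that scaling, at log2 changes of -0.60, -0.53, -0.37, -0.33, -0.53 and -0.70.

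Nfe2l1, the factor that raises transcription of subunit genes, was at 15.3, 16.9 and 13.4 TPM in uninduced and 20.1, 15.1 and 22.2 TPM in induced libraries. The groups overlapped through induced replicate 2, with a log2 change of 0.30 (limma SE 0.24, adjusted p 0.450, and 0.0653 to 0.706 over the alternatives), or 0.69 after median-of-ratios scaling. Nfe2l2, its relative in the oxidative stress response, averaged 29.9 ± 7.02 TPM without and 30.6 ± 2.95 TPM with induction (SD, n = 3 per group), and limma gave 0.05 on the log2 scale at an adjusted p of 0.909. Mafk, a small Maf protein that pairs with both, fell by 1.02 on the log2 scale (limma adjusted p 0.0329), or by 0.64 after scaling, where the call was lost. The transcripts say nothing of Nfe2l1 activity, which is known to be set by protein processing.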

How the data were processed

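Total RNA libraries were made with a stranded low-input kit and sequenced as paired ends, per the labels' protocols. The authors deposited 1 table of TPM per gene and library, and HISAT2, StringTie and GRCm38 are named in the submitters' processing notes, with versions, annotation release and roles not given in the sources used here. Per the file headers the table also holds GC content in percent, which was not used. It keeps no read counts, so depth is unknown. Its 60496 rows were summed to 55471 gene IDs. Genes averaging 1 TPM or more across the 6 libraries were tested on log2(TPM + 1) with limma 3.58.1 (R 4.3.3, variance trend, two-sided, Benjamini-Hochberg, threshold 0.05), and log2 changes on that scale understate those of low genes. On simulated data with 200 changed genes, the fit recovered 90% of changes of 2 log2 units and 31% of changes of 1. Of 130 calls there, 9 were false. A gene without a call may therefore still have changed. Ratios of 2 genes were compared by exact permutation. Pseudogene copies were found with blastn 2.17.0 among GENCODE M21 transcripts. In all, 15 alternatives were run. Named genes were the catalytic subunits, the smallest adjusted p and the change nearest 0 in each group, any called higher, the 3 largest changes each way, and all called pathway genes with Nfe2l1, Nfe2l2 and Pomp. Some members of the pathway and marker lists are counted but not reported by name here. The genes and lists were chosen with earlier results of these data known. Same-numbered libraries did not deviate together (correlations 0.0215, -0.0152 and 0.0172), so no pairing was assumed.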

Additional observations from a re-analysis of the deposited data

How the results depend on the processing

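Calls depended on the processing more than directions did. Of 44 tested proteasome genes, 35 kept a negative change under all 15 alternatives, and of 13 called genes 3 (Psmb6, Psmd14, Psmc3ip) passed under all. Counts follow for no filter, median-of-ratios scaling, quantile normalization, rescaling to nuclear protein-coding genes, no variance trend and the replicate block. All genes called, in either direction, were 752, 806, 814, 886, 767 and 902 against 1549. Proteasome genes called lower were 6, 3, 3, 5, 3 and 8 against 13, and pathway genes called lower 4, 1, 1, 1, 1 and 4 against 8. These counts differ in direction and are not shares. Called lower after median-of-ratios scaling and rescaling were 6.82% and 11.4% of proteasome genes and 2.56% and 2.56% of pathway genes. Of all tested genes 3.1% and 4.27% were. The fit with no filter tested more genes. The rescaling tested only the 10562 nuclear protein-coding genes, of which 1205 were called lower and 144 higher on the deposited scale. Rescaling to nuclear protein-coding genes also called 2 pathway genes higher (Bach1 and Ubb), or 5.13%, near the 4.12% of all genes tested there. The counts of all genes called higher and all genes called lower were 174 and 1375 on the deposited scale, 388 and 418 after median-of-ratios scaling, 374 and 440 after quantile normalization and, over the 10562 genes only, 435 and 451 after rescaling. The proteasome median of -0.63 became -0.54 with a pseudocount of 5, and -0.24, -0.25 and -0.22 under the 3 scalings. Leaving out 1 library gave 573 to 1198 for all genes called in either direction. It gave 3 to 8 proteasome and 1 to 7 pathway genes called lower and a proteasome median of -0.68 to -0.55.

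Signs turned where changes were small. The median of all genes, -0.35 as deposited, became 0.0032 after median-of-ratios scaling, and that of the nuclear protein-coding genes, -0.36 as deposited, became 0.025 after rescaling. Under median-of-ratios, quantile and protein-coding scaling, Psmg1 became 0.17, 0.16 and 0.21, Psmg2 0.012, 0.0021 and 0.041, Psmb7 0.17, 0.18 and 0.21, Psmc2 0.088, 0.088 and 0.12, Psmc4 0.12, 0.13 and 0.16, Psmg4 0.26, 0.24 and 0.29, and Ubb 0.40, 0.28 and 0.43. Rescaling also gave 0.014 for Psma6 and 0.018 for Psme1. Leaving out 1 library gave ranges that crossed 0 for Psmg1 (-0.36 to 0.088), Psmg4 (-0.44 to 0.086), Psmb8 (-0.089 to 0.19), Psmb9 (-0.21 to 0.18), Nfe2l2 (-0.091 to 0.22) and Ubb (-0.12 to 0.15). Median-of-ratios scaling divided the uninduced libraries by 1.06 to 1.27 and the induced ones by 0.825 to 0.942. This division raises the log2 change of each detected gene. Causes beyond the scaling were not tested. The replicate block kept 8 of the 13 calls, and the numbers are no pairing. Depth is unknown, and 3 libraries a group limit the precision.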

Other observations

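Tissue-restricted subunits were low or not detected. Psma8, the alpha subunit of the testis proteasome, was at 9.64, 6.57 and 7.94 TPM in uninduced and 2.90, 9.40 and 2.61 TPM in induced libraries, so that induced replicate 2 stood among the uninduced values. Psmb11, the beta subunit of thymic epithelium, was listed at 0 in all 6 libraries.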
